A study of Mus musculus with 2 samples.

Results

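CXC chemokines are small secreted proteins that draw leukocytes along a gradient through receptors of the CXCR family, and skin macrophages, fibroblasts, endothelium and keratinocytes each make some of them. This account follows 10 of the 32285 genes of a mouse skin single-cell matrix, Cxcl1, Cxcl2, Cxcl3, Cxcl5, Cxcl9, Cxcl10, Cxcl12, Cxcl13, Cxcl14 and Cxcl16. The genes were chosen by measured values, since earlier results of the same matrix had shown them in its macrophages, fibroblasts or endothelium, so their levels across cell groups are given as a description and no test is attached to them. All 10 were found by symbol and all 10 had UMIs (unique molecular identifiers, each standing for 1 captured RNA molecule) in the kept cells.

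The study sorted F4/80+ MHCII-high cells from shaved dorsal skin of male wild-type mice aged 9 weeks or 108 weeks, with 2 mice pooled per age and 1 library per age. The skin was digested with collagenase-A, Dispase-II and DNaseI before sorting, and cells were read from the 3′ end of their RNA in droplets. Both libraries were deposited in 1 matrix whose barcodes end in suffix 1 or suffix 2, and nothing in the labels or the matrix ties a suffix to an age. The question of age that the design poses was therefore not addressed, the suffixes are treated as 2 libraries of unknown age, and a difference between them cannot be told apart from a difference between pools of mice, digestions or sorts.

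Of 5257 barcodes, 3797 passed the filter (no fewer than 500 genes and 1000 UMIs, with mitochondrial UMIs up to 10%), 2396 with suffix 1 and 1401 with suffix 2, at a median of 10870 UMIs. After 6 called doublets were set aside, 3791 cells fell into 26 clusters, 25 of which were named from marker lists. The gate's label did not hold for all of them: beside 1521 macrophage-like and 517 dendritic-like cells there were 823 fibroblast-like, 352 endothelial-like, 126 Schwann-like, 77 keratinocyte-like cells and clusters of 90 and 52 muscle-like cells. The libraries stood apart in makeup, with macrophage-like cells at 51.5% of the suffix 1 library and 20.6% of the suffix 2 library, and fibroblast-like cells at 13.3% and 36.2%. They stood apart in collagen too, since Col1a1 in fibroblast-like cells was 45504 CPM (UMIs of the gene per 1000000 UMIs of the group) with suffix 1 and 12451 CPM with suffix 2. For these reasons each level below that matters is given for both libraries, and intervals are 95% intervals that cover counting error only, not the spread between animals.

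The 10 genes fall into 4 families by what they do. CXCL1, CXCL2, CXCL3 and CXCL5 bind CXCR2 and draw neutrophils, and NF-kB drives the first 3 in many cell types. CXCL9 and CXCL10 are induced by interferon and draw T cells through CXCR3. CXCL12 holds CXCR4-bearing cells in tissue, CXCL13 draws B cells through CXCR5, and CXCL14 is made constitutively by epithelium and stroma. CXCL16 is made as a membrane protein that binds CXCR6 and is cut free by ADAM10 and ADAM17.

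In GRCm38 (GENCODE annotation), 7 of the 10 protein-coding genes lie on chromosome 5. Cxcl5 (ENSMUSG00000029371, 90759360 to 90761624), Cxcl3 (ENSMUSG00000029379, 90786103 to 90789600), Cxcl1 (ENSMUSG00000029380, 90891241 to 90893115) and Cxcl2 (ENSMUSG00000058427, 90903871 to 90905938) lie close together on the plus strand. Cxcl9 (ENSMUSG00000029417, 92321347 to 92328079) and Cxcl10 (ENSMUSG00000034855, 92346638 to 92348889) lie close together on the minus strand, and Cxcl13 (ENSMUSG00000023078, 95956951 to 95961068) is on the plus strand. The others are Cxcl12 on chromosome 6 (ENSMUSG00000061353, 117168535 to 117181367, plus strand), Cxcl14 on chromosome 13 (ENSMUSG00000021508, 56288643 to 56296551, minus strand) and Cxcl16 on chromosome 11 (ENSMUSG00000018920, 70453983 to 70459984, minus strand). Cxcl1, Cxcl2 and Cxcl3 are related in sequence, and any reads that fit more than 1 of them could have been lost or split between them in the authors' counting. Since a 3′ count depends on where each transcript ends and is captured, levels are compared between cell groups for 1 gene and not between genes.

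The promoters of 4 members are shown because they share a motif, and 3 of these belong to the neutrophil-drawing genes on which the macrophage and fibroblast results turn. Each stretch comes from RefSeq on GRCm38.p6, runs 5′ to 3′ on the gene's own strand and ends 31 bases before the RefSeq start. Matches to an NF-kB-like motif (GGG, any 3 bases, TTCC, searched on both strands) are in capitals.
Cxcl1, chr5:90891095-90891214, plus strand: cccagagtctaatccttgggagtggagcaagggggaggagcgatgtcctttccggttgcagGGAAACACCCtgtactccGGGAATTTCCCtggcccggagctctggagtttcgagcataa
Cxcl2, chr5:90903749-90903868, plus strand: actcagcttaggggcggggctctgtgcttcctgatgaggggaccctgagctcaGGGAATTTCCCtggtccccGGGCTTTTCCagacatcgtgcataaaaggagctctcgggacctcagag
Cxcl3, chr5:90785951-90786070, plus strand: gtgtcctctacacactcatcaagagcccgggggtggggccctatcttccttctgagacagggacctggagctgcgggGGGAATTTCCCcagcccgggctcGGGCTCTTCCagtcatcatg
Cxcl10, chr5:92348920-92349039, minus strand: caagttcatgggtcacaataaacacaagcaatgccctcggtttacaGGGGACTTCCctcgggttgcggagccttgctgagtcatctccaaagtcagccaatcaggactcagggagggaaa

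Positions are counted from the RefSeq start, which can differ from the GENCODE start given above. The window of Cxcl2 ends at 90903868, while its GENCODE start is 90903871. The letters GGGAATTTCC begin at -71 before the RefSeq start of Cxcl1, at -97 before Cxcl2 and at -73 before Cxcl3. In each the reverse strand holds a match that overlaps these letters. In each 1 more match lies apart from them, beginning at -89 in Cxcl1, at -78 in Cxcl2 and at -50 in Cxcl3. Each of the 3 promoters thus carries 3 matches at 2 places. Cxcl10 carries 1, GGGGACTTCC at -104. The motif was in 735 of 32851 RefSeq promoter windows of the same length (2.24%). Promoters were listed for 8 of the 10 members, and those of Cxcl9, Cxcl12, Cxcl13 and Cxcl14 held no match in the same window. Another motif, interferon-response-like (GAAA, any 2 bases, GAAA, on both strands), was in 406 windows (1.24%) and in 0 of the members with a listed promoter, Cxcl9 and Cxcl10 among them. A match is a run of letters and not a measured binding site.

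The members divided between the 2 lineages. Over all kept cells, macrophage-like cells held 77.2% of the 104247 UMIs of Cxcl2, 68.8% of the 4148 of Cxcl3, 52.5% of the 1614 of Cxcl13 and 52.3% of the 7020 of Cxcl16. Fibroblast-like cells held 65.9% of the 60342 UMIs of Cxcl1, 88.1% of the 1703 of Cxcl5, 63.4% of the 4653 of Cxcl14 and 46.5% of those of Cxcl13. Endothelial-like cells held the largest share of Cxcl12, 38.5% of 8893 UMIs against 34.9% in fibroblast-like cells, and of Cxcl9, 37.5% of 2500. These shares depend on how many cells of each kind a library holds: with suffix 2 alone fibroblast-like cells held 2260 UMIs of Cxcl12 and endothelial-like cells 1966. Cxcl10 was spread over the lineages, with 27.4% of 5453 UMIs in fibroblast-like, 25.1% in endothelial-like and 23.1% in macrophage-like cells.

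**Figure D1:**
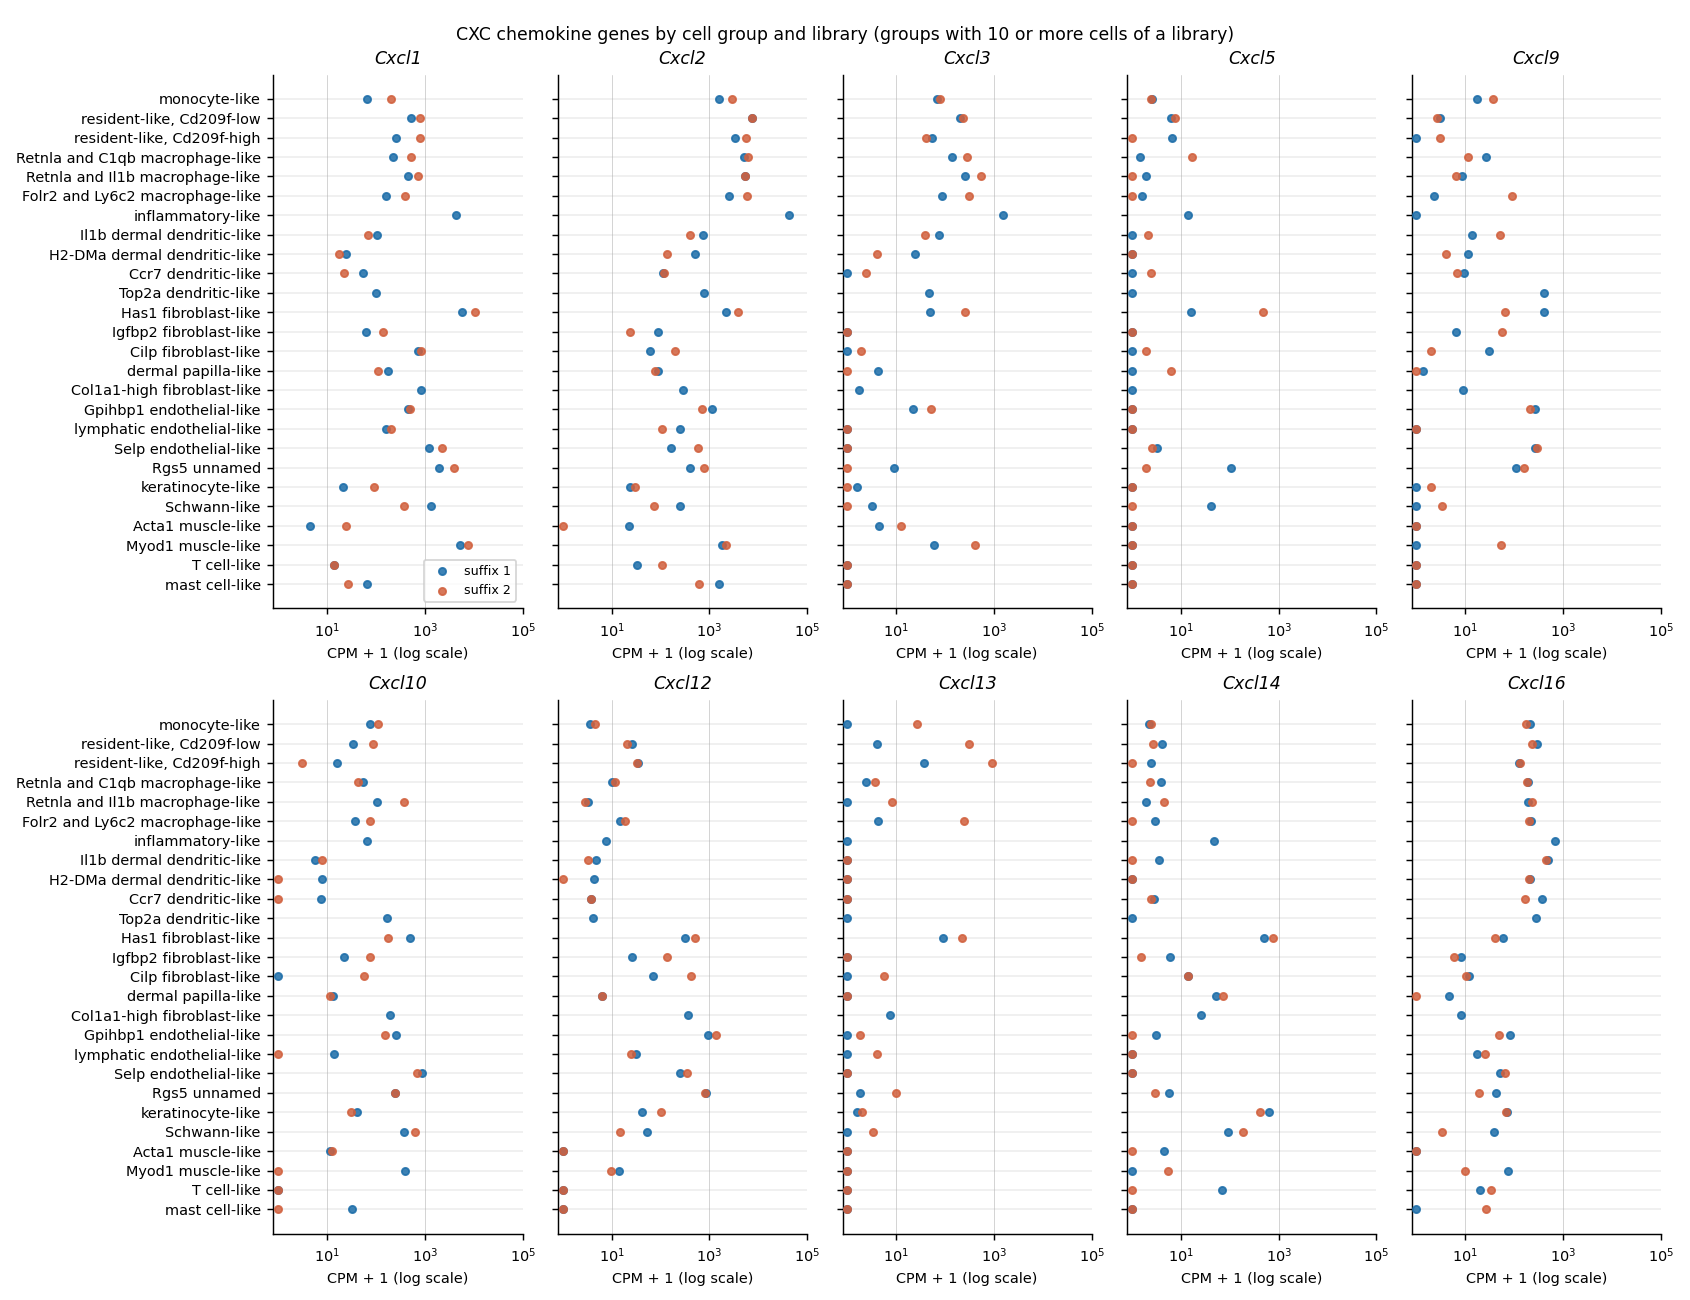
Level of each gene (CPM + 1, log axis) in each cell group of at least 10 cells of a library, with 1 point per library. The points of Cxcl2 are high across the macrophage-like groups, those of Cxcl1 are high in Has1 fibroblast-like cells, and the points of Cxcl13 in the resident-like groups lie far apart between libraries.

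Between the 1521 macrophage-like and the 823 fibroblast-like cells, 3 members were at least 2-fold higher in macrophage-like cells (Cxcl2, Cxcl3 and Cxcl16) and 5 in fibroblast-like cells (Cxcl1, Cxcl5, Cxcl9, Cxcl12 and Cxcl14). Of 13314 genes with at least 20 UMIs, 19.1% were 2-fold higher in macrophage-like and 29.1% in fibroblast-like cells. The members' median log2 ratio was -1.29 and that of all genes -0.17. The members had been chosen on these levels, so nothing is read from the counts.

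Cxcl2 was 4285 CPM with suffix 1 and 5156 CPM with suffix 2 in macrophage-like cells, and 367 and 1926 CPM in fibroblast-like cells. Its pooled log2 ratio, macrophage-like over fibroblast-like, was 2.04 (2.02 to 2.07). Cxcl16 had macrophage-like levels of 209 and 191 CPM against 11.8 and 22.3 CPM, and a log2 ratio of 3.62 (3.43 to 3.82). For both genes the macrophage-like level was above the fibroblast-like level in each library.

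Cxcl3 read 142 and 216 CPM in macrophage-like cells against 7.08 and 124 CPM in fibroblast-like cells, which gave a log2 ratio of 4.33 within suffix 1 and of 0.80 within suffix 2. Cxcl1 read 303 and 514 CPM in macrophage-like cells against 942 and 5330 CPM in fibroblast-like cells, with a pooled log2 ratio of -3.08 (-3.12 to -3.04). In both genes the fibroblast-like level moved between libraries far more than the macrophage-like level did.

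Cxcl12 was 12.6 and 11.6 CPM in macrophage-like cells against 117 and 365 CPM in fibroblast-like ones, a log2 ratio of -4.23 (-4.44 to -4.04). Cxcl14 was 2.32 and 1.69 CPM against 84.0 and 379 CPM, a log2 ratio of -6.66 (-7.16 to -6.21). Cxcl9 was 10.0 and 22.6 CPM against 50.8 and 47.2 CPM, a log2 ratio of -1.92 (-2.15 to -1.71). All 3 were lower in macrophage-like cells in each library.

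For the other 3 members the libraries differed on the order or nearly so. Cxcl5 read 2.39 CPM in macrophage-like and 1.80 CPM in fibroblast-like cells with suffix 1, but 4.34 and 240.1 CPM with suffix 2. Cxcl10 read 56.8 and 106 CPM with suffix 1 and 115 and 117 CPM with suffix 2. Cxcl13 read 6.24 and 11.7 CPM with suffix 1 and 184 and 108 CPM with suffix 2, so that its log2 ratio changed from -0.90 to 0.77.

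**Figure D2:**
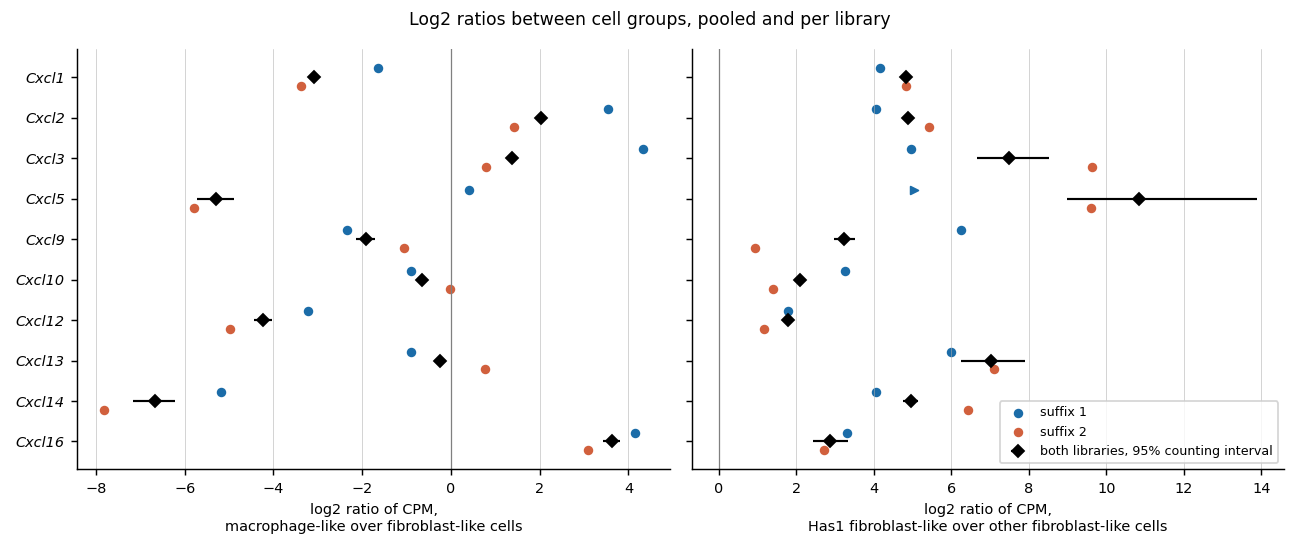
Log2 ratio of CPM for each gene, macrophage-like over fibroblast-like cells (left) and Has1 fibroblast-like over other fibroblast-like cells (right), with black diamonds for both libraries pooled with the 95% counting interval, and coloured points for each library. Cxcl5 and Cxcl13 have library points on both sides of 0 in the left panel, all points lie above 0 in the right panel, and the triangle for Cxcl5 marks a lower bound of 5.04 because the other fibroblast-like cells with suffix 1 held 0 UMIs.

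Leaving out the 376 Has1 fibroblast-like cells moved the count of members higher in macrophage-like cells more than any other choice tried. Without them, 7 of the 10 members had a log2 ratio above 0 instead of 3, and the log2 ratio of Cxcl1 became 0.07, that of Cxcl5 3.76, that of Cxcl10 0.30 and that of Cxcl13 5.01. Cxcl12, Cxcl14 and Cxcl9 kept their negative sign. This alternative was chosen after the data had been seen. The share of all genes above 0 in this comparison was not computed, so nothing is read from the count.

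The share of cells with a UMI was read after each cell had been thinned to 2000 UMIs, since deeper cells show more genes. Cxcl2 was detected in 72.9% of 1460 macrophage-like cells and 23.1% of 776 fibroblast-like cells (82.8% and 41.8% before thinning). Cxcl16 was detected in 30.1% and 4.25% (67.6% of macrophage-like cells before thinning). Cxcl1 was detected in 17.9% and 44.2%, Cxcl12 in 2.67% and 34.4%, and Cxcl14 in 0.548% and 18.6%. T cell-like cells, which should lack Cxcl1 and Cxcl2, had a UMI of Cxcl1 in 8.82% (3 of 34) and of Cxcl2 in 11.8% at a median of 6542 UMIs, against medians of 10165 and 13083 UMIs in macrophage-like and fibroblast-like cells. Shares of these genes at or below those values cannot be told from background by the share alone.

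The Has1 fibroblast-like cells held most of the fibroblast-like UMIs of every member when the libraries were pooled, though with suffix 1 alone they held 264 UMIs of Cxcl12 and the other fibroblast-like cells 582. They were named for Has1, which makes hyaluronan, and their leading genes were Dcn, Has1, Clec3b, Tnfaip6 and Ptx3. They made up 24.2% of the fibroblast-like cells with suffix 1 (77 cells) and 59.2% with suffix 2 (299 cells), and held 60.7% of all Cxcl1 UMIs, 88.0% of Cxcl5, 58.7% of Cxcl14 and 45.7% of Cxcl13. Against the 447 other fibroblast-like cells all 10 members were at least 2-fold higher pooled, where 7.45% of 11712 genes were. Their median log2 ratio was 4.86 and that of all genes -0.10. With suffix 2 alone Cxcl9 was 1.91-fold higher, at 62.3 against 32.6 CPM. The choice of members used these levels, so the count describes them and nothing is read from it.

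The neutrophil-drawing genes were high in these cells. Cxcl1 was 5694 CPM with suffix 1 and 10495 CPM with suffix 2 in Has1 fibroblast-like cells, and 9456 CPM pooled against 334 CPM in the other fibroblast-like cells, a log2 ratio of 4.82 (4.77 to 4.87). Cxcl2 was 2163 and 3839 CPM, and 3476 against 117 CPM pooled. Cxcl1 was found in 75.1% (70.2 to 79.5) of 345 thinned Has1 cells and Cxcl2 in 42.9%. Both were high in both libraries, and the per-cell level of Cxcl1 ran from 0 at the 10th percentile through 4756 CPM at the median to 22302 CPM at the 90th.

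Cxcl5 stood apart within this family. It was 15.5 CPM with suffix 1 and 489.7 CPM with suffix 2 in Has1 cells, while the other fibroblast-like cells together held 2 UMIs (0.210 CPM). It was found in 5.80% of thinned Has1 cells, 5 cells of the whole matrix held at least 50% of its 1703 UMIs, and the top 10 held 79.5%. The gene was high in few cells, and its level in the suffix 2 library set the pooled one. Cxcl3 was 48.9 and 253 CPM in Has1 cells against 1.15 CPM pooled in the other fibroblast-like cells, with 1 cell holding 37.9% of its UMIs there (130.3 CPM without it).

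Cxcl14 and Cxcl12 were also high in Has1 cells, and more evenly. Cxcl14 was 495 and 764 CPM by library and was found in 38.0% of thinned cells, and its pooled level was 706 against 22.9 CPM in the other fibroblast-like cells, a log2 ratio of 4.95 (4.75 to 5.15). Cxcl12 was 315 and 509 CPM and was found in 49.9%, and its pooled level was 467 against 136 CPM, a log2 ratio of 1.78 (1.67 to 1.88). In neither gene did the libraries differ 2-fold.

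Of the remaining members, Cxcl9 and Cxcl13 rested on few Has1 cells, and Cxcl10 and Cxcl16 on more. Cxcl9 was 397 CPM with suffix 1 and 62.3 CPM with suffix 2, of which 1 cell in each held 57.4% and 80.4%, and without those cells the levels were 179 and 12.3 CPM. The other fibroblast-like cells read 5.18 and 32.6 CPM of Cxcl9, so with suffix 2 the order rested on 1 cell. Cxcl10 was 508 and 172 CPM, or 274 and 146 CPM without the top cell of each library, which held 49.1% and 15.5% of the UMIs. Cxcl13 was 89.5 and 218 CPM, or 58.1 and 89.1 CPM without the top cell of each library. Cxcl16 was 57.3 and 39.2 CPM and was seen in 96 of the 376 cells, with 6.59% of its UMIs in the top cell.

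Has1 cells of the libraries differed 2-fold in 5 of 10 members (Cxcl3, Cxcl5, Cxcl9, Cxcl10 and Cxcl13), where 14.5% of 8870 genes did. The members' median log2 ratio, suffix 2 over suffix 1, was 0.76 and that of all genes 0.04. Beside this, Col1a1 in the Has1 cells was 12170.4 CPM with suffix 1 and 1992 CPM with suffix 2, and Lyz2, a macrophage marker, was 449 and 25.1 CPM. The part of these differences in the chemokine values was not tested.

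The NF-kB and AP-1 list as a whole was not higher in Has1 cells, while most of the interferon list was. Of 13 list genes with at least 20 UMIs, 1 was at least 2-fold higher than in other fibroblast-like cells and 0 were 2-fold lower, with a median log2 ratio of -0.14. Ptgs2, the inducible cyclooxygenase, was 1283 CPM there. The transcription factor gene Fos was 1105 CPM against 1715 CPM, the NF-kB inhibitor gene Nfkbia 1507 against 1961 CPM, and Il6, the cytokine, was 1498 against 138 CPM. Of the 12 interferon-response genes 8 were 2-fold higher in Has1 cells and 0 lower, with a median log2 ratio of 1.42, where 7.45% of 11712 genes were 2-fold higher. Both lists were compared with the libraries pooled. Suffix 2 gave 299 of the 376 Has1 cells and 206 of the 447 others, so library and cluster cannot be told apart here.

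**Figure D3:**
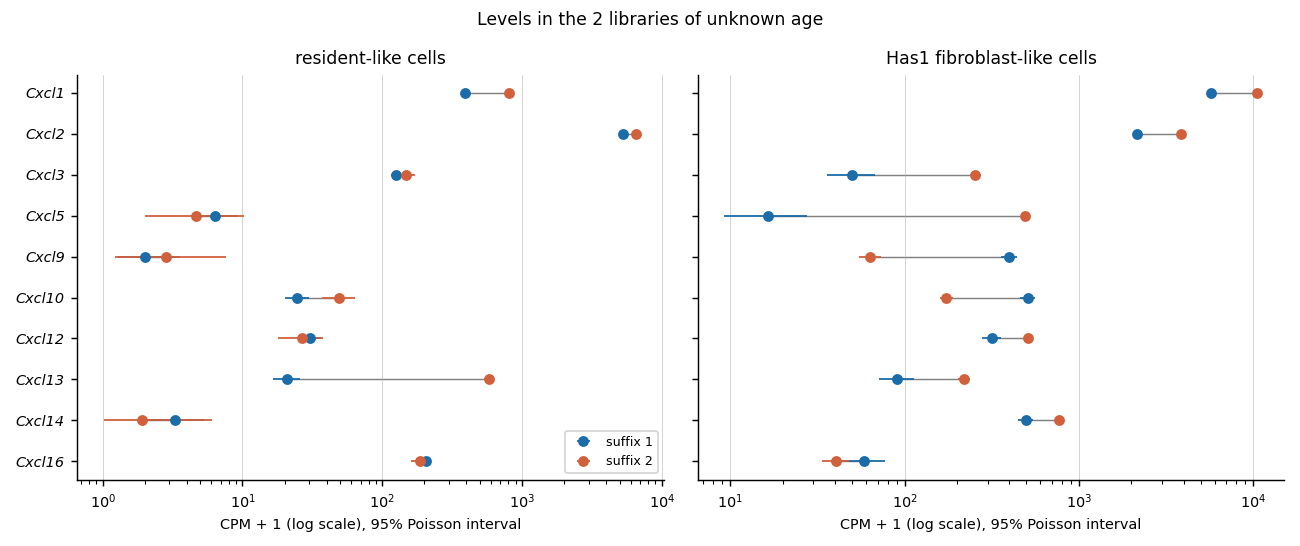
Level of each gene (CPM + 1, log axis, with 95% Poisson intervals) in the suffix 1 and suffix 2 libraries, in resident-like macrophages (left) and Has1 fibroblast-like cells (right). In the left panel the Cxcl13 points lie at 19.8 and 579.6 CPM while those of Cxcl2 and Cxcl16 lie close together, and in the right panel the widest gap is that of Cxcl5.

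Among macrophages, the 24 inflammatory-like cells carried the highest Cxcl2. These cells, 22 of them with suffix 1, were named from markers that include Il1b (10525 CPM) and Tnf (1092 CPM), both cytokine genes. Cxcl2 was 41409 CPM (40440.0 to 42395) in them and 4138 CPM in the other macrophage-like cells, a log2 ratio of 3.32 (3.29 to 3.36), and the 10th percentile, median and 90th percentile of the cells were 16712, 36756 and 72590.4 CPM. Cxcl2 was found in 100% of the thinned cells, so the level was not carried by a few of them. Cxcl3 was 1384 against 148 CPM, a log2 ratio of 3.23, and was found in 66.7% of the cells.

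Cxcl1 was 4236 against 315 CPM in the same comparison, a log2 ratio of 3.75 (3.63 to 3.86), and within suffix 1 alone it was 4436 against 257 CPM. Cxcl16 was 746 against 199.8 CPM, a log2 ratio of 1.90 (1.63 to 2.16). Cxcl14 held 8 UMIs in 4 of the cells, Cxcl5 2 UMIs in 1 cell, and Cxcl9 and Cxcl13 held 0, which allows up to 17.9 CPM. Cxcl10 was 89.5 against 70.1 CPM, a log2 ratio of 0.35 (-0.49 to 1.08) whose interval spans 0. In all, 6 of the members were 2-fold higher (Cxcl1, Cxcl2, Cxcl3, Cxcl5, Cxcl14 and Cxcl16), where 16.2% of 11000 genes were. Another 2 were 2-fold lower (Cxcl9 and Cxcl13), where 23.9% were. Cxcl5 was counted on its 2 UMIs, with an interval of -0.97 to 4.04 that spans 0, and that of Cxcl9 reached 0.76. The members' median log2 ratio was 2.16 against -0.18 for all genes. The members had been chosen with earlier results of these data known, so nothing is read from the counts.

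The NF-kB and AP-1 list was mixed in inflammatory-like cells and most of the interferon list was lower. Of the 14 NF-kB and AP-1 genes, which include the markers Il1b and Tnf, 7 were 2-fold higher and 3 lower than in other macrophage-like cells. Of 11000 genes 16.2% were higher and 23.9% lower. The list's median log2 ratio was 1.07. Its immediate-early genes Fos, Jun and Egr1 were 304, 53.7 and 71.6 CPM there, and 764, 241 and 208 CPM in all macrophage-like cells. Of the 12 interferon-response genes 0 were higher and 11 lower, with a median of -2.86, where 23.9% of 11000 genes were 2-fold lower. Pf4, the platelet factor 4 gene and another CXC chemokine, was 3949.9 CPM in inflammatory-like cells, and 1471 and 1971 CPM by library in all macrophage-like cells.

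The 599 resident-like macrophages, with suffix 1 in 485 and suffix 2 in 114, fell into 306 cells low and 293 cells high in Cd209f, a gene of a C-type lectin. Cxcl2 was 7285 CPM in Cd209f-low and 3753 CPM in Cd209f-high cells, a log2 ratio of 0.96 (0.92 to 0.99). Cxcl3 was 209 against 49.9 CPM, a log2 ratio of 2.06 (1.78 to 2.36), and Cxcl16 was 274 against 126 CPM, a log2 ratio of 1.12. For these 3 genes the Cd209f-low level was the higher one in each library. Cxcl1 was 592 against 366 CPM pooled, but by library it was 525 against 255 CPM with suffix 1 and 807 against 812 CPM with suffix 2. Cxcl5 held 14 against 11 UMIs, a log2 ratio of 0.33 (-0.92 to 1.61) whose interval spans 0.

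Cxcl13 had the opposite order. It was 208 CPM (191 to 227) in Cd209f-high and 76.1 CPM in Cd209f-low cells, a log2 ratio of -1.45 (-1.70 to -1.21) for low over high. By library it was 35.9 and 907 CPM in Cd209f-high cells, while Cd209f-low cells held 6 UMIs in 239 cells with suffix 1 and 310.4 CPM with suffix 2. With suffix 2 the Cd209f-high level was the higher one, also without the top cell of each cluster (704 against 148 CPM). With suffix 1, a single cell held 73.6% of the Cd209f-high UMIs (9.50 CPM without it) and another 83.3% of the Cd209f-low UMIs, so the order there rested on single cells.

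Cxcl13 was the member with the widest library difference among resident-like cells, 19.8 CPM with suffix 1 and 579.6 CPM with suffix 2, a log2 ratio of 4.87 (4.53 to 5.23). A UMI was seen in 9 of 485 and in 38 of 114 cells. After thinning the shares were 0.868% (4 of 461, 0.237 to 2.21) and 24.3% (26 of 107, 16.5 to 33.5), and in Cd209f-high cells they were 1.66% (4 of 241) and 43.5% (20 of 46). A single cell held 67.9% of the UMIs with suffix 1 and 17.3% with suffix 2, and the levels without those cells were 6.36 and 485 CPM. Keratinocyte-like cells, which should lack the gene, had a share of 1.37% (1 of 73, 0.0347 to 7.40), whose interval holds both suffix 1 shares and neither suffix 2 share. The cell with the most UMIs among those with suffix 1 held 53.

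Outside the resident-like cells the difference varied in size and in the number of cells behind it. Cxcl13 was 3.20 and 245 CPM in Folr2 and Ly6c2 macrophage-like cells, or 6.26 (4.98 to 7.92) as a log2 ratio. Only 15 of these cells were with suffix 2, and the part held by the top cell was not computed. In Has1 fibroblast-like cells Cxcl13 was 89.5 and 218 CPM, a log2 ratio of 1.29 (0.94 to 1.65), or 58.1 and 89.1 CPM without the top cells. In monocyte-like cells it was 0 and 26.1 CPM, but the UMIs lay in 4 cells and 1 of them held 66.7% (9.04 CPM without it). In Retnla and C1qb macrophage-like cells it was 1.47 and 2.63 CPM, a log2 ratio of 0.84 (-2.74 to 3.96). Col1a1, a fibroblast marker, was found in resident-like cells too, 259 CPM with suffix 1 and 39.2 CPM with suffix 2. The part of fibroblast RNA in the chemokine levels of macrophages was not tested.

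The other members differed less between libraries in resident-like cells. Cxcl1 was 388 and 809 CPM, a log2 ratio of 1.06, and Cxcl10 was 23.6 and 48.3 CPM, of which 1 cell with suffix 2 held 90.6% (4.61 CPM without it). Cxcl2 was 5244 and 6559 CPM, Cxcl3 125 and 147 CPM, Cxcl12 29.4 and 25.5 CPM, and Cxcl16 205 and 184 CPM. Of 8 members with enough UMIs 3 differed 2-fold (Cxcl1, Cxcl10 and Cxcl13), where 8.00% of 8675 genes did, with median log2 ratios of 0.28 and -0.05. The NF-kB and AP-1 list had 0 of 14 genes 2-fold apart and a median of 0.01, and the interferon list had 0 higher and 1 lower of 11.

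Cxcl12 in resident-like cells was low, though above its level in monocyte-like cells. The share of thinned cells with a UMI was 5.28% in resident-like and 0.268% (1 of 373) in monocyte-like cells. Its level of 29.4 and 25.5 CPM by library compares with 1142 CPM in Gpihbp1 endothelial-like and 467 CPM in Has1 fibroblast-like cells, and the part of RNA from such cells was not tested. Cxcl14 was at 2.28 and 0.911 CPM in resident-like cells.

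Monocyte-like and dendritic-like cells showed the limits of the macrophage pattern. Cxcl2 was found in 50.7% of 373 thinned monocyte-like cells and Cxcl1 in 7.51%, which is below its share in T cell-like cells and so is read as background. Dermal dendritic-like cells had 549 CPM of Cxcl2 against 4138 CPM in macrophage-like cells other than the inflammatory-like ones, a log2 ratio of -2.91 (-2.97 to -2.86), and 68.8 against 315 CPM of Cxcl1. Their Cxcl16 was higher in the same comparison, 371 against 199.8 CPM, a log2 ratio of 0.89 (0.81 to 0.98). Cxcl13 had 0 UMIs of 4988956 in them, which allows up to 0.601 CPM. Dendritic-like cells thus held 36.5% of all Cxcl16 UMIs and 3.31% of all Cxcl2 UMIs.

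Of all clusters, the Gpihbp1 endothelial-like one had the highest Cxcl12. It was 927 CPM with suffix 1 and 1386 CPM with suffix 2 in the 248 Gpihbp1 endothelial-like cells, capillary cells by that gene, and was found in 80.1% (74.3 to 85.1) of them. All endothelial-like cells together had 739 CPM, below the 839.6 CPM of the unnamed Rgs5 cluster, and under a stricter cell filter the lineage with the highest Cxcl12 was fibroblast. The 48 Selp endothelial-like cells, which carry P-selectin, had 302 against 1142 CPM, a log2 ratio of -1.92 (-2.09 to -1.75). The other direction held for Cxcl10, at 765 against 207 CPM (1.89, 1.73 to 2.05), and for Cxcl1, at 1838 against 469 CPM (1.97, 1.87 to 2.07). A single cell held 24.2% of the Cxcl1 UMIs in Selp cells, whose per-cell median was 271 CPM against 109.8 CPM in Gpihbp1 cells. Without the top cell of each cluster, Cxcl1 was 767 against 346 CPM with suffix 1 and 1626 against 446 CPM with suffix 2. Cxcl9 was 283 against 237 CPM, close between the clusters.

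By library, Cxcl10 was 889.6 and 676 CPM in Selp cells and 253 and 154 CPM in Gpihbp1 cells, and Cxcl9 was 267 and 295 CPM and 264 and 207 CPM. The clusters kept their order for Cxcl10 in both libraries. Gpihbp1 cells also carried macrophage RNA, with Lyz2 at 1855 CPM with suffix 1 and 711 CPM with suffix 2 and Il1b at 531 CPM pooled, where Selp cells had 19.1 and 17.2 CPM pooled. The part of that RNA in the Cxcl2 level of 938 CPM in Gpihbp1 cells was not tested. In lymphatic endothelial-like cells Cxcl12 was found in 7.69% of cells and Cxcl9 in 0 of 52 thinned cells, which allows a UMI at that depth in up to 5.77% of cells and does not bound the share that expressed the gene.

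Among other stromal cells, Myod1 muscle-like cells (52 cells) read 6494 CPM of Cxcl1 and 2011 CPM of Cxcl2 pooled. Schwann-like cells read 868 CPM of Cxcl1, 488 CPM of Cxcl10 and 139 CPM of Cxcl14 pooled. By library these were 1343 and 376 CPM of Cxcl1, 366 and 615 CPM of Cxcl10, and 93.1 and 186 CPM of Cxcl14. A single Schwann-like cell held 25.3% of the Cxcl1 UMIs (655 CPM without it). The Rgs5 cluster, which was left unnamed, read 2884 CPM of Cxcl1 and 839.6 CPM of Cxcl12. Its Cxcl5, 56.9 CPM, lay at 98.5% in 1 cell. Keratinocyte-like cells had 636 and 415 CPM of Cxcl14, found in 41.1% of 73 cells, with 1 cell holding 21.9% (452 CPM without it). Cxcl14 was thus high in keratinocyte-like cells and, among fibroblast-like cells, in the Has1 cluster (706 CPM against 22.9 CPM in the others).

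The order of the cell groups differed from gene to gene, and for several genes between libraries. Pooled, Cxcl1 ran from Has1 fibroblast-like (9456 CPM) through Myod1 muscle-like (6494) and inflammatory-like cells (4236) to the Rgs5 cluster (2884). Neighbouring counting intervals did not overlap. Inflammatory-like cells and the Rgs5 cluster read 4436 and 1954 CPM with suffix 1. With suffix 2 their order turned, 2201 CPM in 2 inflammatory-like cells and 4010.0 CPM in the Rgs5 cluster. Cxcl2 ran from inflammatory-like cells (41409) to Cd209f-low (7285), with Retnla and Il1b (5393) and Retnla and C1qb macrophage-like cells (5274) overlapping. Cxcl3 was highest in inflammatory-like cells (1384), then in Retnla and Il1b cells (316), while Myod1 muscle-like (236), Has1 fibroblast-like (209) and Cd209f-low cells (209) overlapped pooled. By library these 3 did not keep together, at 58.3, 48.9 and 201 CPM with suffix 1 and 411, 253 and 234 CPM with suffix 2.

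Cxcl9 was 283 CPM in Selp and 237 CPM in Gpihbp1 endothelial-like cells, whose intervals overlapped. Its pooled level of 353 CPM in Top2a dendritic-like cells was higher, but a single cell held 86.4% of those UMIs and the level without it was 50.1 CPM. Cxcl10 was highest in Selp endothelial-like cells in both libraries (889.6 and 676 CPM). Below them the order turned between libraries, with Has1 fibroblast-like cells (508 CPM) above Schwann-like cells (366 CPM) with suffix 1 and below them with suffix 2 (172 against 615 CPM), where the Schwann-like interval overlapped that of the Selp cells. Cxcl13 was 208 CPM in Cd209f-high and 190.4 CPM in Has1 fibroblast-like cells pooled, with overlapping intervals, but the libraries had opposite orders, 35.9 against 89.5 CPM with suffix 1 and 907 against 218 CPM with suffix 2. Without the top cell of each group the pooled levels were 165 and 89.2 CPM. Cxcl14 was highest in Has1 fibroblast-like (706 CPM) and keratinocyte-like cells (553 CPM) pooled, and the libraries had opposite orders, 495 against 636 CPM with suffix 1 and 764 against 415 CPM with suffix 2. Cxcl16 ran from inflammatory-like (746 CPM) to Il1b dermal dendritic-like (469.6 CPM) to Ccr7 dendritic-like cells (284 CPM).

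**Figure D4:**
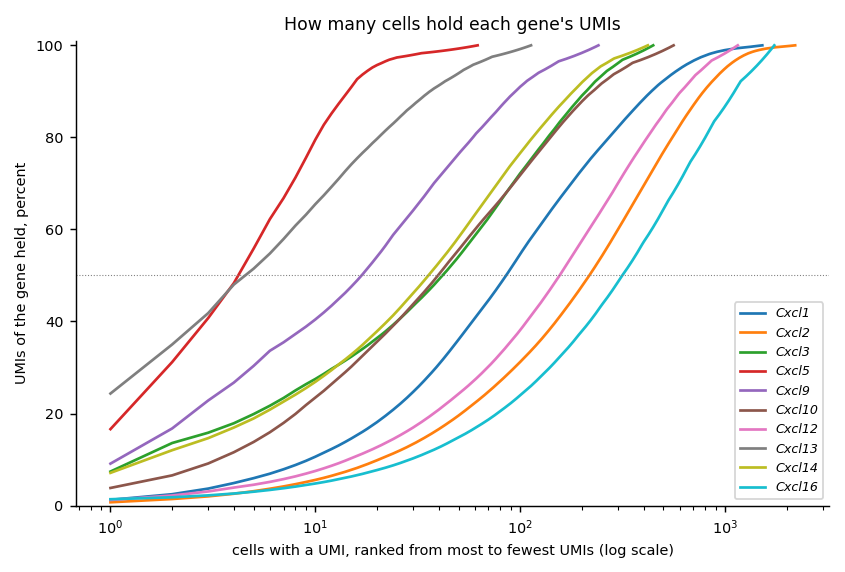
Cumulative percent of each gene's UMIs in the cells that hold any, ranked from most to fewest UMIs (log axis). The curves of Cxcl5 and Cxcl13 rise at once, with 5 cells holding 50% of the UMIs of each, while 218 cells are needed for Cxcl2 and 315 for Cxcl16.

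How many cells carry a gene set how firmly its level can be read. Cxcl16 was in 1740 cells and Cxcl2 in 2200, and their top cells held 1.38% and 0.722% of their UMIs. The opposite was seen for Cxcl13, of whose UMIs 1 cell held 24.3% and 10 cells 65.5%, and for Cxcl5, with 16.6% in 1 cell. Cxcl9 had 40.4% of its UMIs in 10 cells and 17 cells held at least 50%. For these 3 genes the level of several cell groups rested on a few cells, though not in every group: in Gpihbp1 endothelial-like cells Cxcl9 was in 79 cells, with 7.03% of its UMIs in the top cell.

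Several members were found in the same cells, with both libraries pooled here. In Has1 fibroblast-like cells thinned to 2000 UMIs, 54.4% (141 of 259) of the cells with Cxcl1 had Cxcl2 and 8.14% (7 of 86) of those without it. Cxcl5 was in 7.72% (20 of 259) of the cells with Cxcl1 and in 0 of 86 without it. Cxcl12 was in 49.8% of the cells with Cxcl1 and in 50% of those without it, and the intervals overlapped. Those of Cxcl14 overlapped too, at 37.1% and 40.7%.

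In resident-like macrophages, Cxcl2 was in 96.5% (109 of 113) of the cells with Cxcl1 and 70.8% (322 of 455) of those without it. Cxcl16 was in 51.6% (33 of 64) of the cells with Cxcl3 and 26.2% (132 of 504) of those without it. Cxcl16 was in 10% (3 of 30) of the cells with Cxcl13 and 30.1% (162 of 538) of those without it, with intervals that overlapped (2.11 to 26.5 and 26.3 to 34.2). Of those 30 cells 26 were with suffix 2, 20 of them Cd209f-high. Among all Cd209f-high cells Cxcl16 was in 23.7% (57 of 241) with suffix 1 and 8.70% (4 of 46) with suffix 2. The intervals of these shares overlapped (18.4 to 29.5 and 2.42 to 20.8), and the levels were 125 and 127 CPM. Among Cd209f-low cells Cxcl16 was in 38.6% (85 of 220) with suffix 1 and 31.1% (19 of 61) with suffix 2. Cxcl3 and Cxcl16 were both higher in Cd209f-low cells. Pairing within cells cannot be told apart from library and cluster makeup in these pooled contrasts. In blood endothelial-like cells Cxcl10 was in 50.9% (27 of 53) of the cells with Cxcl9 and 11.8% (26 of 221) of those without it, while Cxcl12 was in 67.9% and 75.6%.

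**Figure D5:**
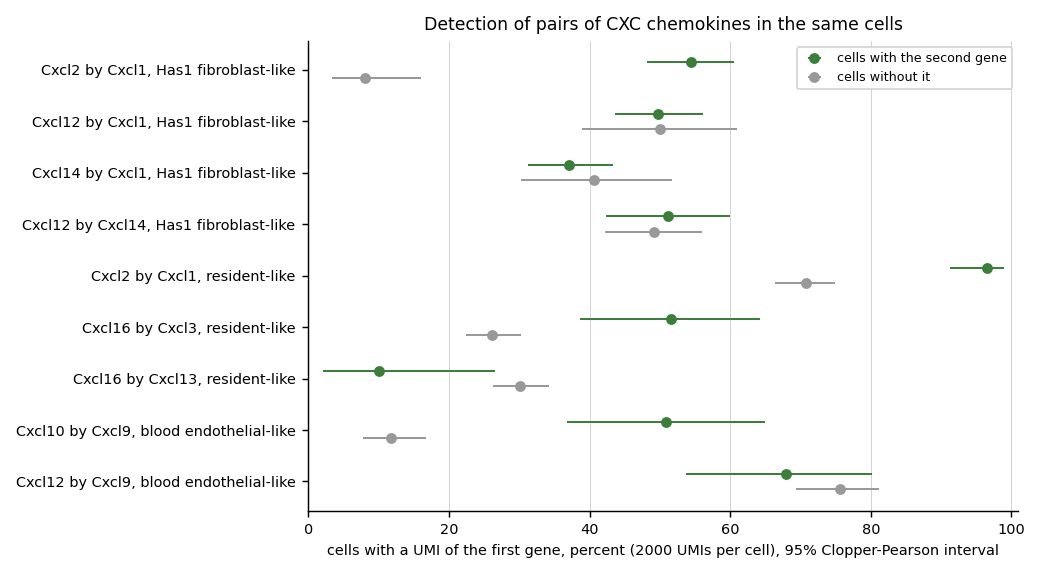
Percent of cells with a UMI of one gene (2000 UMIs per cell, 95% Clopper-Pearson interval) among cells with (green) and without (grey) another gene, for 9 pairs in 3 cell groups. The intervals stand apart for Cxcl2 by Cxcl1 in both groups, for Cxcl16 by Cxcl3 and for Cxcl10 by Cxcl9, and overlap for Cxcl12 by Cxcl1, Cxcl14 by Cxcl1 and Cxcl12 by Cxcl14.

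At 2000 UMIs, 44.6% of 345 Has1 fibroblast-like cells held 3 or more of the 10 members, as did 79.2% of 24 inflammatory-like cells, 22.1% of Cd209f-low and 10.1% of Cd209f-high resident-like cells and 23.9% of Gpihbp1 endothelial-like cells. No member was found in 67.0% of the Igfbp2 fibroblast-like cells. The most held by a cell was 6.

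The genes whose levels were most like each member's were read from the 25 named clusters, with Pearson's r of log2(CPM + 10), as a description of clusters that share libraries and depth. Cxcl2 and Cxcl3 were most like each other, r = 0.89, and next to Cxcl2 stood Cflar (0.87) and Unc93b1 (0.85). Cxcl5 was most like Bmper (0.95), Sult1e1 (0.93) and Smpd3 (0.93). Cxcl12 was most like Ly6c1 and Pdgfd (0.90), Cxcl16 like Ahr, Abcc1 and Matk (0.89), Cxcl14 like Sult5a1 (0.88), Cxcl13 like Pomk and Tslp (0.84), Cxcl1 like Ampd3, Rhoc and Vcam1 (0.76), Cxcl10 like Cxcl1 (0.72) and Cxcl9 like E2f7 (0.71). Between members, r was 0.65 for Cxcl2 and Cxcl16, 0.59 for Cxcl9 and Cxcl10 and -0.31 for Cxcl12 and Cxcl16.

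The receptor genes were found in several cell groups. Cxcr4, the CXCL12 receptor, was 163 and 158 CPM by library in macrophage-like cells, 234 CPM in monocyte-like and 2.84 CPM in fibroblast-like cells. Ackr3, a scavenger of CXCL12, was 194 and 346 CPM in fibroblast-like cells and 410.0 CPM in Has1 cells, and Ackr1, which binds many chemokines, was 457 CPM in Selp endothelial-like cells. Cxcr6 was 406 CPM and Cxcr3 61.2 CPM in T cell-like cells. Cxcr2 held 54 UMIs, Cxcr5 15 and Cxcr1 3, too few to describe.

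Of the partners of CXCL12, CXCL14 and CXCL16, the protease gene Dpp4, which trims chemokines, was 115 CPM in fibroblast-like cells (161 CPM in Has1 cells) against 8.25 CPM in macrophage-like cells. Adam10 was 64.6 against 35.2 CPM and Adam17 104 against 38.4 CPM, macrophage-like against fibroblast-like. Of the 6 list genes 1 was 2-fold higher and 3 lower in macrophage-like cells, where 19.1% and 29.1% of 13314 genes were. The median log2 ratio was -0.78 for the list and -0.17 for all genes. Of the 4 other CXC chemokines found in the matrix, Pf4 and Ppbp had enough UMIs. Both were at least 2-fold higher in macrophage-like cells, where 19.1% of 13314 genes were.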

How the data were processed

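The authors deposited 1 matrix of counts, the UMIs per gene and cell barcode of both libraries, and the submitters' processing notes name Cell Ranger 4.0.0 and mm10. No other normalisation had been applied. The 10 members, the gene lists and the markers were chosen with earlier results of these data known. Cells were kept at 500 genes, 1000 UMIs and at most 10% mitochondrial UMIs, and Scrublet in scanpy 1.11.5 called 6 of 3797 kept cells doublets, so doublets were largely left in. Clusters came from 2000 variable genes without 69 chemokine and receptor genes, 30 principal components, 15 neighbours and Leiden resolution 1 (leidenalg 0.10.2, igraph 0.11.9). A fixed marker list counted for a cluster when at least 3 of its markers were at 20 CPM or more and at least 2-fold above the median cluster. Lists were scored by the mean log2(CPM + 10) of their markers less that of the median cluster. The lineage with the highest score named the cluster X-like if it led the next lineage by at least 1. The Rgs5 cluster did not reach this (erythroid 5.57, pericyte and vascular smooth muscle 5.54) and was left unnamed. The cluster names used in the text were made after the clusters had been seen.

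UMIs were summed per group and given as CPM with exact 95% Poisson intervals, log2 ratios have exact binomial intervals, shares have Clopper-Pearson intervals after thinning to 2000 UMIs, and a count of 0 allows up to 3 counts. Ratios over all genes used those with at least 20 UMIs, and the procedure was tested on simulated data. With 1 library per age, and no key from suffix to age, no test between groups was made and no p-value is given. The rule for named genes was the 10 members, the fixed lists of receptors, other CXC chemokines, NF-kB and AP-1, interferon and partner genes, and the 3 genes most like each member among those with at least 100 UMIs. Of the 5 other CXC chemokines listed, 4 were matched in the matrix. Python 3.11.15, numpy 2.4.6, scipy 1.17.1, pandas 2.3.3 and matplotlib 3.10.9 were used.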

Additional observations from a re-analysis of the deposited data

Results flagged for a closer look

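The 1460 barcodes that did not pass the filter were not used above, and each member had UMIs in them above the limit that a count of 0 allows. In these barcodes Cxcl1 was 769 CPM, Cxcl2 603 CPM, Cxcl3 34.6 CPM, Cxcl5 4.26 CPM and Cxcl9 19.2 CPM. Cxcl10 was 72.0 CPM, Cxcl12 169 CPM, Cxcl13 4.63 CPM, Cxcl14 167 CPM and Cxcl16 39.2 CPM. In the kept cells the same genes, in the same order, were 1189, 2058, 81.7, 33.5, 49.3, 107, 176, 31.8, 91.6 and 138 CPM. Cxcl14 was the member whose level was higher in the left-out barcodes.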

How the results depend on the processing

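The log2 ratio of each member, macrophage-like over fibroblast-like cells, was computed again under 14 alternatives, 12 planned and 2 added after seeing the data. Of 140 ratios 129 had the sign reported above and 11 the other, and 6 members never changed sign (Cxcl2, Cxcl3, Cxcl9, Cxcl12, Cxcl14 and Cxcl16). Without the Has1 fibroblast-like cluster the ratio was 0.07 for Cxcl1, 3.76 for Cxcl5, 0.30 for Cxcl10 and 5.01 for Cxcl13. In that setting 7 members in place of 3 had a ratio above 0, a count with no share of all genes beside it. With suffix 1 alone the ratio of Cxcl5 was 0.41. The ratio of Cxcl13 was 0.02 at resolution 2, 0.24 with a larger set of variable genes, 0.08 with chemokines among the variable genes, 0.21 for doublet scores under 0.2, 0.77 with suffix 2 alone and 0.62 without the cell with the most UMIs of each group. The lineage with the highest level was the same for 6 of 10 members at resolution 2 and for 6 of 10 at doublet scores under 0.2, and the cause was not tested. No paired analysis was possible because each age is 1 library and no library carries a replicate number. The number of cells with a UMI limits Cxcl5, Cxcl9 and Cxcl13 most, and the 24 inflammatory-like cells limit every level in them.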
